A study of Mus musculus with 2 samples.

Results

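Leukocytes other than Kupffer cells made up 136 of the 1175 called cells with enough fragments in peaks in this single-cell ATAC-seq series of mouse liver. They were chosen by measured values, namely the fragments of each cell over gene bodies with 2 kb on both sides. The leukocyte sum L covered Flt3, Napsa, Gpr132, Fmnl1, Osm, Gpr141, Myo1g and Bcl11a. A called cell with at least 1000 fragments in peaks was a member when L was at least 4 and exceeded the sums of 8 Kupffer cell genes (K), 8 endothelial genes (E) and 6 stellate cell genes (S). The data come from male mice of 8 to 10 weeks without treatment, 1 with the genotype Spta wt/wt and 1 littermate with Spta sph/sph, a spectrin mutation known for fragile red blood cells. The non-parenchymal liver cells were selected on magnetic beads for F4/80, the macrophage surface protein encoded by Adgre1, and their nuclei were loaded on the 10x Genomics platform. The enrichment acts on which leukocytes reach the library, so shares of cells below are not shares of the liver.

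There was 1 library per genotype, and nothing in the sources used here ties barcode suffix 1 or 2 to a genotype. Every value is therefore given for library 1 or library 2, no genotype was compared, and no test was possible. All intervals are at the 95% level and hold counting error alone. Library 1 held 52 members among 610 cells, or 8.52% (exact Clopper-Pearson interval 6.43 to 11), and library 2 held 84 among 565, or 14.9% (12 to 18.1). With cells thinned to 5000 fragments, 24 of 529 cells (4.54%, 2.93 to 6.68) and 32 of 511 (6.26%, 4.32 to 8.73) were members, and these intervals overlap. No cell barcode was shared between the called cells of the libraries.

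Kupffer cells are resident macrophages that line the sinusoids, clear aged red blood cells and recycle their iron. Other liver leukocytes include monocytes arriving from the blood, conventional dendritic cells that take up and present antigen on MHC class II, and lymphocytes. Monocytes are divided into a classical kind, marked by Ccr2 and Ly6c2, and a nonclassical kind that patrols vessels and carries Cx3cr1 and the factor Nr4a1. FLT3 is the receptor that dendritic cell precursors need, and PU.1, encoded by Spi1, is a transcription factor shared by myeloid cells. An ATAC fragment marks DNA that the transposase could reach, so the values describe open chromatin and not RNA or protein.

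The promoters of 7 genes that the results turn on are printed from RefSeq (GRCm38.p6), each 300 bases long, from 250 bases before to 50 after the start, 5′ to 3′ on the strand of the gene. Flt3 is a gene of the rule, Sgms2, S100a3 and F13a1 are among the genes furthest above Kupffer cells, Cx3cr1 marks nonclassical monocytes, and S1pr5 and Btla lead clusters described further on. Capitals mark matches, on either strand, to any of 5 motifs: the PU.1 core GAGGAAG, the RUNX core TGTGGTT, the AP-1 site TGANTCA, the C/EBP pair TTGCNNAA, and the ETS-IRF composite, which is GGAA, any 2 bases and GAAA. Overlapping matches were merged. Where a gene has several RefSeq starts, the start with the most member fragments was taken.

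The Flt3 window lies at chr5:147400440-147400739 on the minus strand, Sgms2 at chr3:131490181-131490480 on the minus strand and S100a3 at chr3:90586702-90587001 on the plus strand. F13a1 lies at chr13:37049164-37049463, Cx3cr1 at chr9:120068247-120068546 and S1pr5 at chr9:21248394-21248693, all on the minus strand, and Btla at chr16:45224087-45224386 on the plus strand.
Flt3: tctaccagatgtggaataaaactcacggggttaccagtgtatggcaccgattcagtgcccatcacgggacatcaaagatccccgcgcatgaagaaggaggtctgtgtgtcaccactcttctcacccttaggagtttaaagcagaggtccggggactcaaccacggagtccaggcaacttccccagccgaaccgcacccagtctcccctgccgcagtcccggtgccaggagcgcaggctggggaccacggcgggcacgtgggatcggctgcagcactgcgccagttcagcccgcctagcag
Sgms2: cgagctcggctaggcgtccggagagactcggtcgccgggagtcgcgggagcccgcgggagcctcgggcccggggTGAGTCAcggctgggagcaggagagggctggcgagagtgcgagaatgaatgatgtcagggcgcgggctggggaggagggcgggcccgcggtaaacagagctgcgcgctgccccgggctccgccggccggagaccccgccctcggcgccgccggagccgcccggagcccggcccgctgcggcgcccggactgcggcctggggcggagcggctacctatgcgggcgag
S100a3: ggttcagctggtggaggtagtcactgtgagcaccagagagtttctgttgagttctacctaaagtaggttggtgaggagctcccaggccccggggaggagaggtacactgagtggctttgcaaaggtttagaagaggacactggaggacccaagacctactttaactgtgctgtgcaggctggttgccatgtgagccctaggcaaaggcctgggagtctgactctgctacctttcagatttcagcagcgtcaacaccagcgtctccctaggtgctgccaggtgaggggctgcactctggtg
F13a1: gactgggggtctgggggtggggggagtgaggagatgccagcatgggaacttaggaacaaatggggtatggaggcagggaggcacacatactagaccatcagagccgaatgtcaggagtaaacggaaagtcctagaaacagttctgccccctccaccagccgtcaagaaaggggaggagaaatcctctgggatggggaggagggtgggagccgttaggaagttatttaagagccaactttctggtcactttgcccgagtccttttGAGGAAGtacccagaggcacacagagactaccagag
Cx3cr1: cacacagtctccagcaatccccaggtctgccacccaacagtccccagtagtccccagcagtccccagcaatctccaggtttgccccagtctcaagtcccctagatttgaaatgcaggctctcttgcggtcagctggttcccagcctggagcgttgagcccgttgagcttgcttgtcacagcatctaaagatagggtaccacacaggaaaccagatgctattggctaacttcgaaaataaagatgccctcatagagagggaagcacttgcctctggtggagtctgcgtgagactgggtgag
S1pr5: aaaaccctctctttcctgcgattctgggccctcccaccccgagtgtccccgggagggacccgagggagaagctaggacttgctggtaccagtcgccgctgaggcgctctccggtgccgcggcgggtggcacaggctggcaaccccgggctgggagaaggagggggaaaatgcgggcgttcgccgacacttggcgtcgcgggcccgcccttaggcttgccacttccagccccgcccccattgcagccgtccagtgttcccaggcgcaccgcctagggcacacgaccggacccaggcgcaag
Btla: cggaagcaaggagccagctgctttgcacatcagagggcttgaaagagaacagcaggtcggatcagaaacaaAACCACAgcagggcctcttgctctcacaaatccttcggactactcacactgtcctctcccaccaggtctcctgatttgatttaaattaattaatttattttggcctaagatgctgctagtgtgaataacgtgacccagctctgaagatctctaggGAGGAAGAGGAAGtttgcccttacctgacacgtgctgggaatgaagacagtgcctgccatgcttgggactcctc

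The Btla window held 2 PU.1 cores and 1 RUNX core, the F13a1 window 1 PU.1 core and the Sgms2 window 1 AP-1 site. The Flt3, S100a3, Cx3cr1 and S1pr5 windows held none of the 5 motifs. Among all 32851 RefSeq windows of this length the PU.1 core was found in 13.63%, the RUNX core in 5.269%, the AP-1 site in 7.808%, the C/EBP pair in 10.8% and the ETS-IRF composite in 2.715%. Among the 102 genes with a window that were 2-fold or more higher in members than in Kupffer cells in both libraries, 22 (21.57%) held the PU.1 core, against 13.3% of the 11470 tested genes with a window and 14.78% of the 115 that were 2-fold or more lower. The other motifs were near or below the tested genes in these 102. The RUNX core was in 2.941% against 3.627%, and the AP-1 site in 4.902% against 4.891%. The C/EBP pair was in 7.843% against 8.082%, and the ETS-IRF composite in 0.9804% against 2.31%. A match describes the letters of the window and no binding.

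Counts within 500 bases of these starts are few, and they show where the members' fragments lie. At the Sgms2 start, members had 14 fragments in library 1 and 31 in library 2, which is 15.5 and 9.03 CPM, meaning fragments per 1000000 fragments of that class in that library, while Kupffer cells had 2 and 3 fragments, or 0.373 and 0.813 CPM. Stellate cells, however, had 8 and 10 fragments there, or 11 and 17.1 CPM, so that in library 2 they were above the members. Sgms2 encodes a sphingomyelin synthase. At the S100a3 start, members had 18 and 33 fragments and Kupffer cells 5 and 3. At the Cx3cr1 start, members had 12 and 22 and Kupffer cells 4 and 3. In both libraries the members were above the Kupffer cells at these 3 starts, although Kupffer cells held more fragments in all. The F13a1 start was thinner, with 4 and 7 fragments in members and 1 and 1 in Kupffer cells, so the excess over its whole gene lies mostly outside this window. At the Flt3 start, which belongs to the rule, members had 14 and 24 fragments and Kupffer cells 3 and 1.

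**Figure D1:**
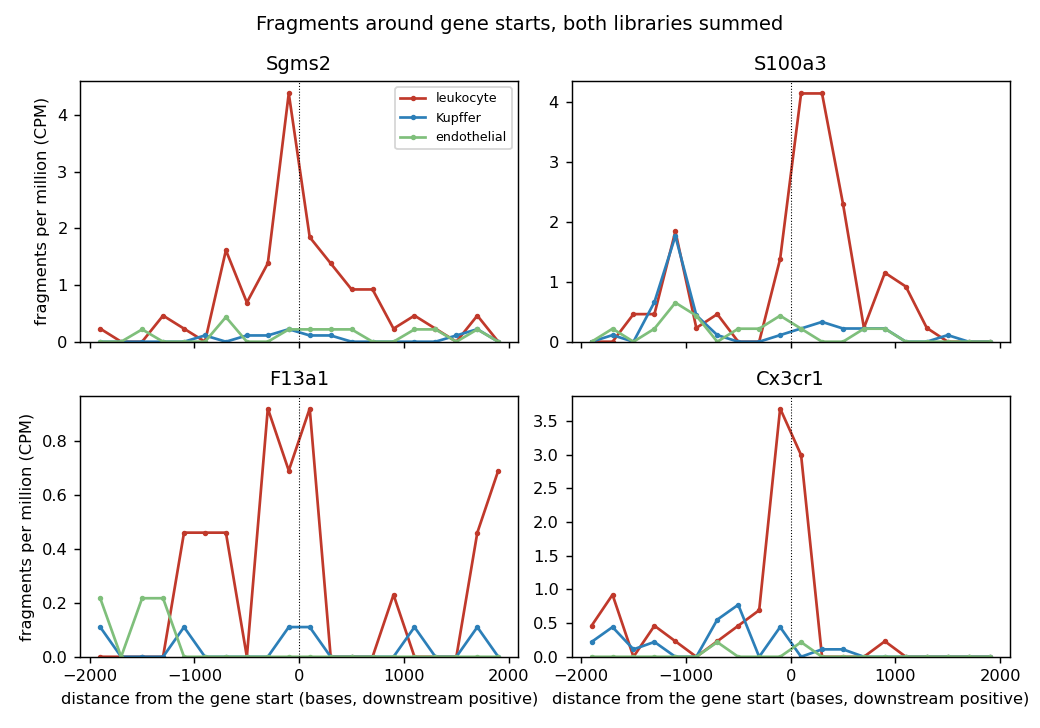
Level in CPM by distance from the gene start in bases, for Sgms2, S100a3, F13a1 and Cx3cr1, both libraries summed, in members (red), Kupffer cells (blue) and endothelial cells (green). The member lines peak near the start of Sgms2, S100a3 and Cx3cr1, where the lines of Kupffer and endothelial cells stay low, and the F13a1 panel rests on few fragments.

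The values that chose the members are given as a description. L had a median of 11.5 in library 1 (range 4 to 29) and 14 in library 2 (4 to 135), and the members had fragments at a median of 5.5 of the 8 genes in both libraries. All 8 genes were hit in 2 and 10 members, and only 1 or 2 genes in 2 and 13 members. Just inside the threshold, 4 and 6 members had an L of exactly 4, and just outside it 3 and 7 cells had an L of 3 above every other sum. In 95 cells of library 1 and 50 of library 2, L reached 4 but stayed below another sum, and in 1 and 2 cells it tied. The largest other sum was at least 50% of L in 15 and 16 members, and in 14 and 6 of these it was K.

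**Figure D2:**
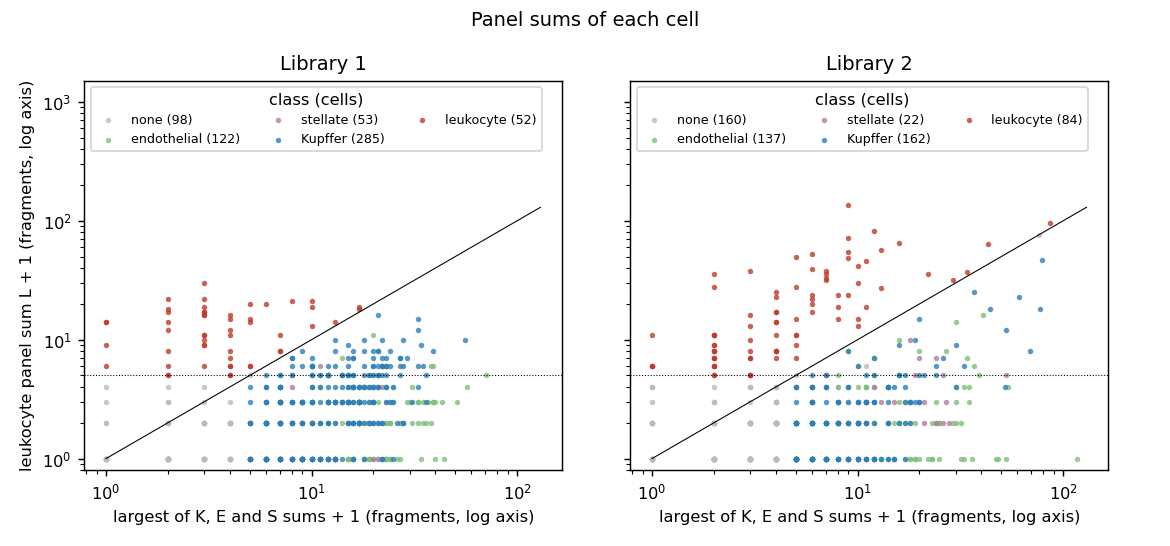
Each point is a cell, with the leukocyte sum L plus 1 on the y axis and the largest of the K, E and S sums plus 1 on the x axis, in fragments on log axes, by library. The dotted line marks an L of 4 and the diagonal equality: the 52 and 84 members lie on or above the first and above the second by the rule, and library 2 holds members with L up to 135.

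Of the genes that formed L, Flt3 stood at 112 CPM in members of library 1 and 88.5 in library 2, against 19.4 and 14.9 in Kupffer cells and 15.9 and 13 in endothelial cells. Bcl11a, a transcription factor of B cells and dendritic cells, stood at 141 and 112 CPM in members and 17.1 and 23.8 in Kupffer cells. Gpr132, a receptor of activated leukocytes, and Myo1g, a myosin of blood cells, had the most fragments of the 8 in Kupffer cells of library 1, with 161 and 157. Napsa, an aspartic protease, had 31 and 160 member fragments and was found in 20 of 52 and 41 of 84 members. Fmnl1, a formin of blood cells, had 97 and 230 fragments, and Gpr141, an orphan receptor, 67 and 292. Osm, the cytokine oncostatin M, was the thinnest in library 1, with 27 fragments in 20 members.

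Members of the libraries differed in quality. A member had a median of 15856 fragments in library 1 and 23932 in library 2, with 74.0% and 60.2% of them in peaks and 81.8% and 90.1% duplicate reads. In library 2, 22 members had under 50% of fragments in peaks, against 3 in library 1. A doublet rule counted positions covered more than 2 times, without correction for the depth of a cell, so a mark does not establish a doublet. It marked 7 members of library 1 and 29 of library 2, and none was removed. Local pile-ups, meaning 20 kb bins in which a cell had at least 10 fragments and at least 10 times the expected number, held a median of 2.20% of a member's fragments in library 2 and 0% in library 1. The deepest member, in library 2, had 572237 fragments, which is 16.66% of all member fragments of that library, while the next had 266254. Only 17.3% of its fragments lay in peaks, and its L of 94 was close to its K of 85, with E at 60 and S at 37.

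The label was checked on lists of genes outside the rule, apart from Cd5l on the Kupffer cell list below. A list of 14 pan-leukocyte genes, such as Ptprc (CD45), Coro1a and Ikzf1, held a median of 1708 CPM per member in library 1 and 1432 in library 2. It held 313 and 347 CPM per endothelial cell and 202 and 322 per stellate cell. Kupffer cells, which are leukocytes too, held 1316 and 839. A list of 15 further Kupffer cell genes separated them from the members, at 559 and 440 CPM in members against 1422 and 1015 in Kupffer cells. Cd5l of this list is also a gene of K, which the rule kept below L, so its part in the difference follows from the rule. Endothelial cells held 499 and 446 of that list. So by medians the members were above endothelial and stellate cells on the first list and near endothelial cells on the second. Single members spread widely, with 92.6 to 2605 CPM of the pan-leukocyte list in library 1 and 131 to 2813 in library 2, and the deepest member had 554.

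The members also lay close to each other in open chromatin that the rule did not use. After the bins of the rule's genes were left out, a member had a median of 18.5 members among its 20 nearest cells in library 1 and 18 in library 2. The nearest cells were sought in both libraries together, where 136 of 1175 cells were members. The own library gave 61.0% of the neighbours in library 1 and 68.75% in library 2, and it held 51.9% and 48.1% of the cells. A Kupffer cell had a median of 0 member neighbours in both libraries. For the members, the lower quartile of member neighbours was 14 in library 1 and 9.75 in library 2. Cells of no class made up 8.85% and 20% of the members' neighbours.

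Compared with Kupffer cells of the same library, members had more fragments at receptor genes such as Gpr183, Ccr1 and Htr7 and at F13a1, and fewer at the iron exporter gene Slc40a1, at Hmox1 and at complement genes such as C6 and C1qb. The log2 ratios below are of summed fragments over a gene with 2 kb on both sides and are relative to the median gene, genes needed 50 fragments in the 2 classes together, and called means 2-fold or more. Genes of the rule and genes overlapping them are left out of the counts. In library 1, 3.39% of 14621 genes were called higher and 4.2% lower, in library 2 6.74% and 4.14% of 15449, and in both libraries 145 genes (1.01% of 14323) were higher and 147 (1.03%) lower. The 5th and 95th percentiles of all genes were -0.93 and 0.84 in library 1, and -0.92 and 1.13 in library 2.

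Htr7, a serotonin receptor gene on chromosome 19 (chr19:35958415-36058133), had the highest ratio by the smaller of its 2 values. Its level was 101 CPM in members of library 1 and 53.9 in library 2 against 15.1 and 10.3 in Kupffer cells. The log2 ratio was 2.70 (2.25 to 3.15) and 2.34 (1.84 to 2.90), and 32 of 52 and 47 of 84 members had a fragment there. Sgms2 stood at 97.4 and 116 CPM in members and 14.0 and 27.6 in Kupffer cells, with log2 ratios of 2.76 (2.30 to 3.23) and 2.03 (1.72 to 2.36). In library 2, 31.1% of its member fragments came from 1 cell, and the ratio was 1.44 with pile-ups masked. At both genes the intervals lay above 0 in both libraries.

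F13a1, the coagulation factor XIII subunit made by monocytes and macrophages, stood at 76.3 and 114 CPM in members and 21.1 and 26.6 in Kupffer cells (log2 ratios 1.82 and 2.06). Adora2a, an adenosine receptor, stood at 43.2 and 34.4 against 14.7 and 10.8 CPM in Kupffer cells. S100a3, a calcium-binding protein, stood at 60.9 and 42.5 CPM against 15.7 and 13.8. Nectin1, an adhesion protein, had log2 ratios of 1.68 and 1.67, and Syne3, which links the nuclear envelope to the cytoskeleton, 1.78 and 1.69. Mapk4, a kinase, had log2 ratios of 1.61 and 2.01, Krt80, a keratin, 1.44 and 1.76, and Bri3bp 1.48 and 1.56. Tiam2, an activator of Rac, had 2.15 and 1.51. Counted only within 1 kb of the fuller gene end, Tiam2 was at 0.24 in library 2 and Bri3bp at 0.77 in library 1, both inside 2-fold.

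Not all of these genes set the members apart from endothelial cells. Dpp4, the dipeptidyl peptidase CD26, stood at 46.5 and 45.4 CPM in members and 10.8 and 13.3 in Kupffer cells, but at 107 and 41.3 in endothelial cells. Adora2a stood at 35.2 and 52.9 CPM in endothelial cells and 70.4 and 72.0 in stellate cells, the latter above the members in both libraries. Rasgrp3, an activator of Ras proteins, stood at 84.1 and 103 CPM in members and at 143 and 58.9 in endothelial cells. In library 2, 1 cell gave 47.6% of the member fragments of Rasgrp3, and the log2 ratio over Kupffer cells was 1.08 with pile-ups masked and 0.96 over members with 3 or more panel genes, against 1.80 over all members. At Tnr, an extracellular matrix gene of the nervous system, 1 cell gave 43.2% of the fragments in library 1, and masking lowered the log2 ratio there from 1.79 to 1.28.

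**Figure D3:**
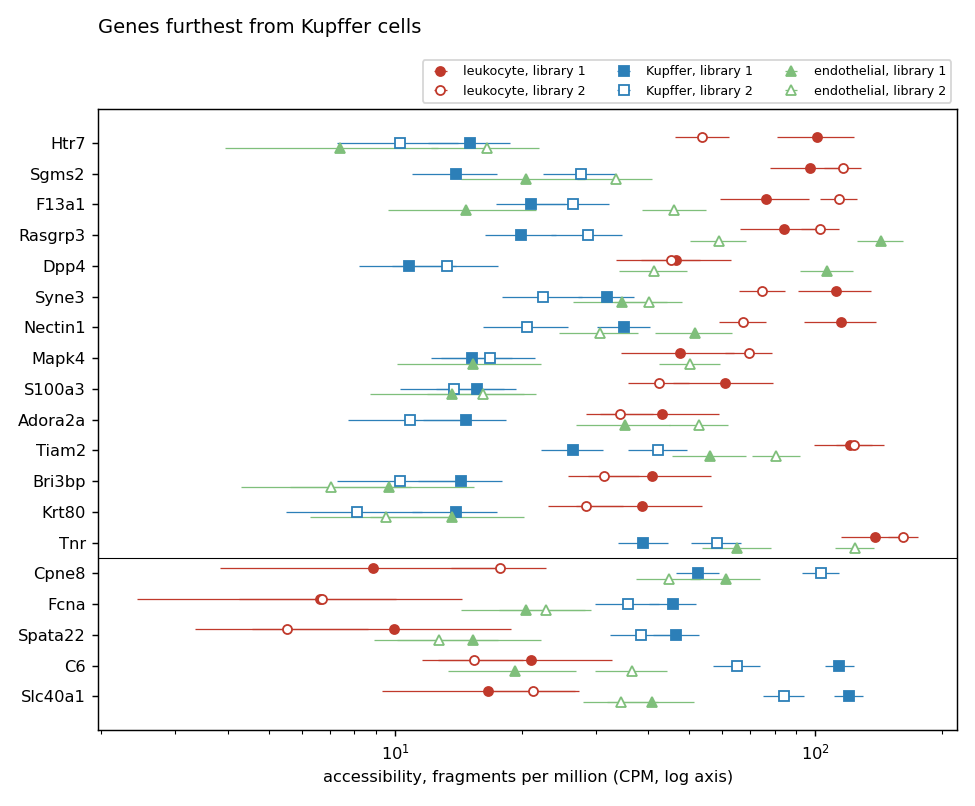
Accessibility in CPM (log axis) of 14 of the genes with the highest and the 5 with the lowest ratios over Kupffer cells, in members, Kupffer cells and endothelial cells, with filled symbols for library 1, open symbols for library 2 and exact Poisson 95% intervals as bars. Members lie to the right of Kupffer cells for the upper 14 genes and to the left for the lower 5. Among the upper 14, endothelial cells pass the members at Dpp4 and Rasgrp3 in library 1 and at Adora2a in library 2.

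At the other end, 2 of the 5 lowest genes, C6 and Slc40a1, stood on the list of further Kupffer cell genes. Slc40a1, the iron exporter ferroportin (chr1:45908070-45926532), stood at 16.6 CPM in members of library 1 and 21.3 in library 2 against 120 and 84.3 in Kupffer cells, with log2 ratios of -2.85 (-3.74 to -2.16) and -2.01 (-2.41 to -1.65). C6, a complement component, stood at 21 and 15.4 CPM against 114 and 65.0. Fcna, a ficolin of the lectin complement pathway, had 6 and 23 fragments in members and 246 and 132 in Kupffer cells. Cpne8, a copine, had log2 ratios of -2.52 and -2.56 (-1.75 in library 2 with pile-ups masked), and Spata22, a meiosis gene, -2.19 and -2.80.

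Of the further Kupffer cell genes, 13 of 15 were tested, 6 were called lower in each library and none higher, with a median log2 ratio of -0.90 and -0.94. C6, Slc40a1, Clec1b and C1qb were lower in both libraries. C1qb, a subunit of the complement starter C1q, had 25.4 and 12.8 CPM in members and 101 and 60.1 in Kupffer cells. Of 14 heme and iron genes, 13 were tested, with 2 lower in library 1 and 5 in library 2 (3 among members with at least 50% of fragments in peaks) and none higher. Hmox1, the heme oxygenase that opens the heme ring, stood at 27.7 and 32.0 CPM in members and 62.4 and 128 in Kupffer cells, with log2 ratios of -1.19 (-1.86 to -0.62) and -2.03 (-2.35 to -1.74). Slc40a1 belongs to both lists.

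Several receptors that guide migration were called higher. Of 20 such genes, 6 of 17 tested were higher in library 1 and 5 of 16 in library 2, with medians of 0.24 and 0.59. Ccr1, Gpr183 and Ltb4r1 were higher in both. Ccr1, a chemokine receptor of monocytes, had 24 and 51 member fragments at 26.6 and 14.8 CPM, against 5.96 and 4.33 CPM in Kupffer cells. Its log2 ratios were 2.12 and 1.71, the latter 3.24 with pile-ups masked. Gpr183, an oxysterol receptor that places lymphocytes and dendritic cells, stood at 46.5 and 28.5 against 8.94 and 7.31 CPM. Ltb4r1, the leukotriene B4 receptor, stood at 35.4 and 18.3 against 16.0 and 4.06 CPM. Cx3cr1, the fractalkine receptor, stood at 79.7 and 51.5 against 40.6 and 18.2 CPM, with log2 ratios of 0.94 (0.53 to 1.32) and 1.46 (1.06 to 1.90). Cxcr6 was the 1 gene of the list that was called lower, at -1.11 (-2.90 to 0.06) in library 1, on 5 member fragments.

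Monocyte genes were mixed. Of the 8 classical monocyte genes, 2 of 6 tested were higher in each library, with medians of 0.84 and 0.17. Without the deepest member, library 2 had 1 of 5 higher and a median of -0.21. Ccr2, the receptor for CCL2, had 28 fragments in library 1, or 31.0 CPM against 7.27 in Kupffer cells, with a log2 ratio of 2.06 (1.30 to 2.79). In library 2 it had 24 fragments, or 6.99 against 2.44 CPM, too few for the count. Plac8 was lower than the median gene in both libraries, at -0.47 and -0.40. Of the 8 nonclassical monocyte genes, all tested, none was called in library 1 and 2, Cx3cr1 and Ace, were higher in library 2. Ace, the angiotensin-converting enzyme, had log2 ratios of 0.07 and 1.30.

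Genes of antigen presentation were close to Kupffer cells, which also carry MHC class II. Of 12 such genes, 12 were tested in library 1 and 11 in library 2, and 1 was higher in each: H2-Oa at 1.55 in library 1 and H2-Aa at 1.84 in library 2. Among members with at least 50% of fragments in peaks, 2 of 11 were higher in library 2. All 12 lay above the median gene in library 1 and 8 of 11 in library 2, with medians of 0.37 and 0.43. Cd74, the invariant chain, stood at 160 and 71.6 CPM in members and 129 and 44.4 in Kupffer cells. Of 10 genes of the cDC1 kind of dendritic cell, none of 9 tested was called higher in library 1. None of 10 was in library 2 without the deepest member. The sums were at -0.33 and -0.13. Of 9 genes of the cDC2 kind or shared by dendritic cells, 1 of 7 and 2 of 7 were higher in these settings, with sums at 0.39 and 0.68. No gene of either list was called lower.

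Markers of lymphocytes and granulocytes were thin. Cd3e, of the T cell receptor complex, had 9 and 20 fragments in 5 and 13 members. Of 12 T cell genes, 2 of 5 tested were higher in library 1 and 5 of 8 in library 2. In library 2 the count was 3 of 8 without the deepest member and 1 of 4 among members with at least 50% of fragments in peaks, and Cd2 was lower in library 2 at -1.45, but at 0.33 with pile-ups masked. Cd3d and Cd5 were higher in both, Cd3d at 1.12 and 1.99 and Cd5 at 1.75 and 1.52, while Bcl11b, a defining T cell factor, had 4 fragments in library 1 and a log2 ratio of -0.23 in library 2. Of 12 natural killer cell genes, 1 of 4 and 1 of 5 tested were higher and 1 lower each time, and Ncr1 had 3 and 13 fragments. The natural killer gene Eomes had 1 and 18. Of 13 neutrophil genes, 0 of 7 were higher in library 1 and 1 of 7 in library 2, and of 12 B cell genes 0 of 8 and 1 of 10. Of 12 basophil and mast cell genes, 2 of 5 tested were higher and 1 lower in library 1. Without the deepest member, 1 of 4 was higher in library 2 and none lower. The list's sum was at 0.56 (0.25 to 0.86) and 0.41 (0.19 to 0.63) in these settings. None of 3 tested eosinophil genes was higher in either, and 1 was lower in library 2. Among library 2 members with at least 50% of fragments in peaks, none of 7 tested B cell genes and none of 2 tested natural killer cell genes was higher.

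Factors of the myeloid and lymphoid lineages were mostly near the Kupffer cell level. Of 32 such genes, 2 of 30 tested were higher in library 1 and 3 of 31 in library 2, with 0 and 2 lower. Runx3, a Runt family factor of dendritic and cytotoxic cells, stood at 88.5 and 78.3 CPM against 33.9 and 25.2, and Ikzf3, of the Ikaros family, at 39.8 and 38.1 against 10.6 and 12.5. Spic, which red pulp and liver macrophages use in iron recycling, had log2 ratios of -0.48 and -1.41, and Nr1h3, the liver X receptor alpha, -0.90 and -0.65. Spi1 itself stood at 156 and 88.2 CPM in members and 179 and 103 in Kupffer cells, within 2-fold.

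**Figure D4:**
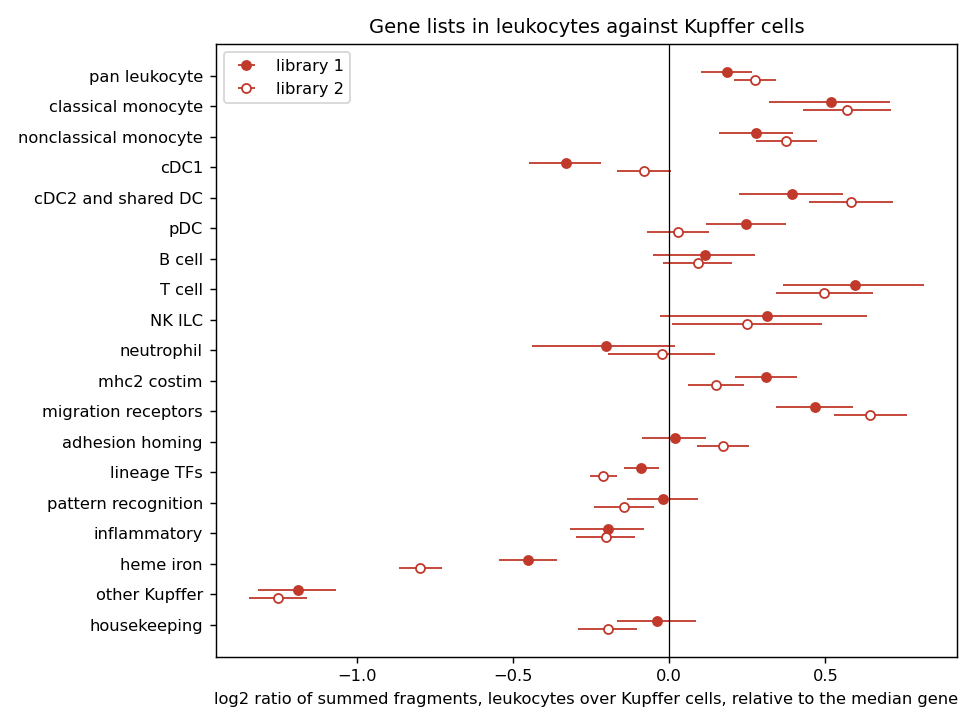
Log2 ratio of summed fragments of each gene list, members over Kupffer cells of the same library, relative to the median gene, with exact 95% counting intervals, filled for library 1 and open for library 2. The further Kupffer cell genes and the heme and iron genes lie left of 0, and the migration receptors and classical monocyte genes right of it, in both libraries. The sum of the further Kupffer cell genes includes Cd5l, a gene of the rule.

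Against endothelial cells, which are not leukocytes, the members differed by leukocyte and vessel genes. Called higher were 7.68% of 12013 genes in library 1 and 8.38% of 15184 in library 2, and called lower 10.4% and 6.68%; in both libraries 302 genes (2.52% of 11999) were higher and 425 (3.54%) lower. Of the pan-leukocyte genes, 11 of 13 tested were higher in library 1 and 8 of 14 in library 2, with medians of 2.61 and 1.67. Of the MHC class II and co-stimulation genes, 8 of 9 and 8 of 11 were higher. Of 14 further endothelial genes, 14 of 14 were lower in library 1 and 9 of 13 in library 2.

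Cd74 led this comparison with 160 and 71.6 CPM in members and 22.7 and 11.6 in endothelial cells. Haao, an enzyme of tryptophan breakdown, stood at 91.8 and 55.0 CPM against 11.3 and 9.52, and at 22.0 and 22.2 in Kupffer cells. Sorl1, a sorting receptor, stood at 194 and 106 CPM against 19.9 and 19.4. Havcr2, the checkpoint receptor TIM-3, stood at 102 and 58.8 CPM against 12.5 and 11.3, but at 86.6 and 50.9 in Kupffer cells, so that its log2 ratio over Kupffer cells was 0.20 and 0.17. Runx3 completed the 5. At the other end stood Ephb4, a receptor of venous endothelium, with 3 and 26 member fragments against 274 and 360, and Adamts1, Egfl7, Gpr182 and Pdk4. Egfl7, a secreted endothelial protein, had 8.85 and 11.4 CPM in members and 114 and 77.2 in endothelial cells.

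The members were not uniform. Leiden clustering on 5 kb bins gave 6 clusters, of 34, 28, 27, 21, 14 and 12 cells, numbered by size and set against the other members by the 2-fold call, with pile-ups masked. Cluster genes come from the cells that were clustered, so they are a description. A cluster was named only where at least 3 markers of 1 cell type list, and of no other such list, stood out. The grouping changed with the bins: 20 kb bins gave 5 clusters, with an adjusted Rand index of 0.344 to the 6 described here.

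Cluster 3, with 11 cells of library 1 and 16 of library 2, was nonclassical monocyte-like. Of 8 nonclassical monocyte genes, 3 were higher than in the other members, where 2.65% of 13803 genes were: Cd300e, an activating receptor, at 141 CPM (log2 ratio 1.61, 1.10 to 2.09), Ace at 106 CPM (1.52) and Nr4a1 at 366 CPM (1.03). Cx3cr1 stood at 129 CPM, with a log2 ratio of 0.97 (0.46 to 1.44). S1pr5, the sphingosine receptor that lets patrolling monocytes leave the marrow, led the cluster at 1.98 (1.15 to 2.72), and Gngt2, Krt80, Casp1 and Ifitm6 were among the other leading genes. Within 500 bases of the S1pr5 start, this cluster had 9 fragments, or 25.5 CPM, and cluster 6 had 0, where 3 fragments would be 6.78 CPM. With 20 kb bins, 18 of the 27 cells fell into a cluster that also held 10 cells of cluster 1 and 7 of cluster 2. The inflammatory chemokine Cxcl2 and the dendritic cell receptor gene Xcr1 were also higher.

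Cluster 6, with 4 and 8 cells, was cDC1-like, after the dendritic cells that cross-present antigen. Of 8 tested cDC1 genes, 5 were higher, where 3.31% of all genes were: Gcsam (2.59), Wdfy4 (1.72), Clec9a (1.64), Cadm1 (1.31) and Irf8 (1.08). Wdfy4, which cross-presentation needs, stood at 450 CPM and was hit in all 12 cells. Xcr1 and Batf3 were within 2-fold, at 0.34 and 0.71. Of the 12 MHC class II and co-stimulation genes, 8 were higher, among them H2-Ob, H2-Ab1, H2-Aa and Ciita, the master regulator of MHC class II. Zbtb46, a factor of conventional dendritic cells, stood at 1.07 (0.70 to 1.41), and Flt3, of the rule, at 224 CPM. Btla, an inhibitory receptor, was a leading gene at 2.03 (1.43 to 2.58), and its start held 5 fragments here, or 11.3 CPM. Kupffer cells had 3 fragments at that start in library 1 and 0 in library 2, where 3 counts would be 0.813 CPM. Of the leading genes, Gcsam, Pdia5, Hmgn1, P3h2, Cd200 and Btla lie on chromosome 16, while Septin3, Hmgn3, Egr3 and Cdon lie elsewhere. Whether this placement bears on the values was not tested. Fn1 was lower at -2.20. With 20 kb bins, 10 of the 12 cells fell into a cluster that also held 11 of the 14 cells of cluster 5.

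Cluster 2, with 19 and 9 cells, stayed unnamed, since its list markers were those of Kupffer cells, which the rule sets apart. It was led by C1qc (2.54) and C1qb (1.85), with Ccr2 (1.60) also higher, and 5 of 12 MHC class II and co-stimulation genes were higher where 1.46% of all genes were. H2-Eb1 stood at 151 CPM and H2-Ab1 at 125. C1qc and C1qb stayed below Kupffer cells, at -0.51 and -0.86, and 10 of the 28 cells had another sum of at least 50% of L. Of 14 tested further Kupffer cell genes, 5 were higher than in the other members, C1qc, C1qb, C6, Id3 and Slc40a1, and the list's sum was at 0.72 (0.55 to 0.89). The K genes of the rule, of which Cd5l is also on that list, were at 0.66 (0.34 to 0.97). The list's sum was below Kupffer cells at -0.73, and the part of Kupffer cell fragments in the values of this cluster was not tested.

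Cluster 4, with 10 and 11 cells, was led by Clec4e, a receptor for mycobacterial and damage signals (1.92, 1.14 to 2.65), with Pla1a and F7 found in 95.2% and 90.5% of cells and with Ccr1 (1.47) and C5ar1 (1.29) higher. Cluster 5, with 1 and 13 cells, held the deep cells, with a median of 49436 fragments, and 11 of 14 were marked by the overlap rule. Osm, Lsp1 and Fn1 were higher in it. When pile-ups were masked before clustering, 10 of its 14 cells joined those of cluster 4, and 5 clusters remained. Neither was named.

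Cluster 1, the largest with 7 and 27 cells, was the least leukocyte-like. A median of 51.1% of its fragments lay in peaks, 17 of 34 cells were below 50%, and 14.2% of all genes were called higher in it, among which none of the 14 pan-leukocyte genes was. The pan-leukocyte sum was lower than in the other members, at -0.53 (-0.62 to -0.44), and Ptprc had a log2 ratio of -0.99. Its leading genes included Mmrn1, the multimerin of platelets and endothelium, Pcdh11x, a protocadherin, Elavl4, an RNA-binding protein of neurons, and Lgr5, a receptor of stem cells. Lists of several cell types were higher as sums. The T cell list was at 0.92 with 4 of 7 genes called, the B cell list at 0.89 with 3 of 10, the erythroid list at 1.12 with 3 of 6 and the further endothelial list at 0.75 with 4 of 8 (Robo4, Stab2, Eng and Gata4). The Kupffer, endothelial and stellate genes of the rule were at 0.62, 0.82 and 1.33, and the further stellate list at 0.95. Of the further Kupffer cell genes, 3 of 14 were called higher, namely Cd5l of the rule, Slc40a1 and C6, and 2 lower. Cps1, a hepatocyte gene, was at 3.74 (2.87 to 4.85), found in 23.5% of cells. Flt3, of the rule, still had 110 fragments in 55.9% of its cells. In 14 of the 34 cells another sum was at least 50% of L, and 13 were marked by the overlap rule. The part of the low share in peaks, of mixed cells and of doublets in these values was not tested.

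**Figure D5:**
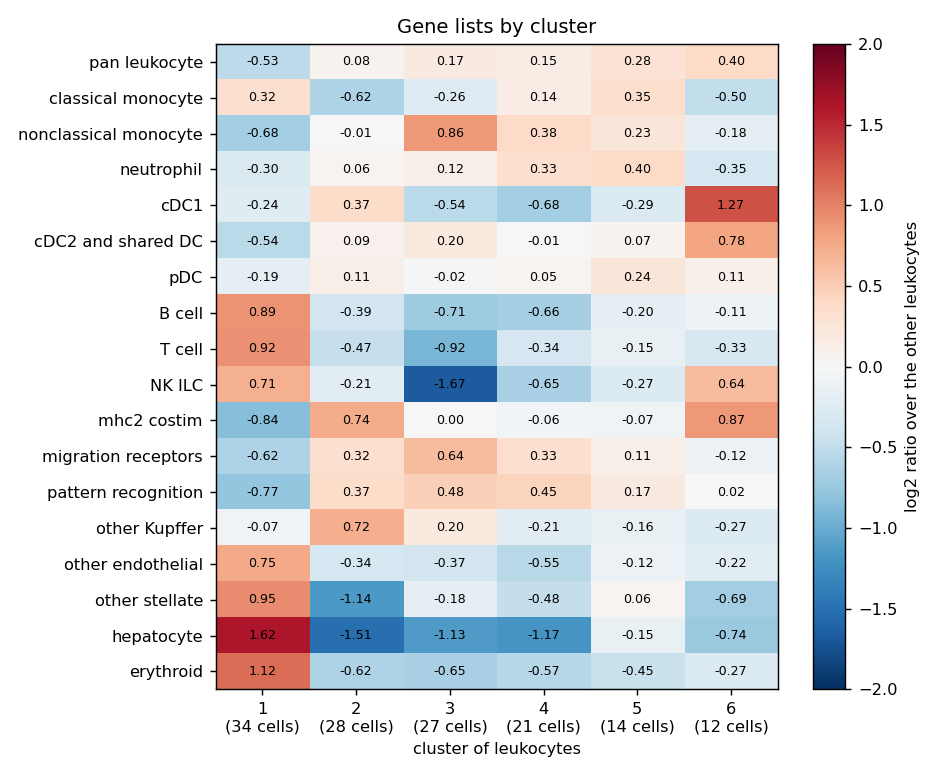
Log2 ratio of each gene list in the 6 clusters over the other members (colour and printed value; columns are clusters with their number of cells). The highest value outside cluster 1 is the cDC1 list in cluster 6 at 1.27, the nonclassical monocyte list is highest in cluster 3 at 0.86, and cluster 1 is highest for the hepatocyte, stellate and erythroid lists.

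Between the libraries, the members differed at many genes, and the number of such genes was smaller among cells with more fragments in peaks. In library 2, 10.5% of 14028 genes were called higher than in library 1 and 0.877% lower. Without the deepest member these were 7.49% and 0.762%, and among members with at least 50% of fragments in peaks 2.35% and 0.437%. The unadjusted median gene had a log2 ratio of -0.30 when scaled by all fragments and 0.33 when scaled by fragments in peaks, so the ratios below are relative to it. The libraries are single, so this comparison concerns these 2 libraries and no genotype.

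The genes highest in library 2 had few or no fragments in library 1. Ism1, a secreted protein, had 0 and 104 fragments, or at least 9.12-fold higher in CPM with 3 counts set as the limit in library 1, and 50.0% of the 104 came from 1 cell. Without the deepest member it had 52 fragments, at least 5.47-fold higher. Cftr, the chloride channel of bile ducts, had 2 and 129 fragments, and it was at 8.94 and 45.5 CPM in Kupffer cells too. Pcdha10, Gucy1a1 and Xirp2 followed, and single cells held 66.1%, 62.2% and 44.7% of their library 2 fragments. The log2 ratio of Pcdha10 was 4.06, and 2.68 without the deepest member, and that of Gucy1a1 was 3.90, and 2.55 with pile-ups masked. Of the 12 hepatocyte genes, both tested ones, Cps1 and Hnf4a, were higher, at 3.52 and 2.23, and 1 of the 2 among members with at least 50% of fragments in peaks. In library 2, 69.2% of the Cps1 fragments and 42% of the Hnf4a fragments came from 1 cell each, and with pile-ups masked their ratios were 1.87 and 1.11.

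MHC class II genes stood among the lowest of library 2. H2-Eb1, the class II beta chain, stood at 120 CPM in members of library 1 and 39.6 in library 2, a log2 ratio of -1.30 (-1.67 to -0.92), and it was found in 40 of 52 and 50 of 84 members. Of the 12 MHC class II and co-stimulation genes, all tested, 2 were called lower and none lay above the median gene, with a median of -0.69. The median was -0.63 without the deepest member, and -0.44 over 11 genes, with none called, among members with at least 50% of fragments in peaks, where H2-Eb1 was at -0.84. H2-Eb1 was at -0.86 with mixed members left out. Kupffer cells shared the direction, with a median of -0.77 over 11 genes and H2-Aa at -1.97. Ccr2 was at -1.85 in the members. Cd244a, a receptor of the SLAM family, stood at 97.4 and 32.6 CPM, a log2 ratio of -1.28, and Prrg1, Fndc7 and Gm9997 were the other lowest genes, with 77.6% of the Prrg1 fragments of library 1 from 1 cell. Among members with at least 50% of fragments in peaks, Prrg1 was at -0.69 and Gm9997 at -0.59.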

How the data were processed

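The data are a table of fragments and a table of barcodes that cover both libraries. The authors deposited, per the file headers, unnormalised counts of fragments per barcode and read pairs per fragment, with a mark for called cells. Cell Ranger ATAC 1.2.0, R 3.6.1, Seurat, Signac 0.2.4 and build GRCm38.p5 are named in the submitters' processing notes. Library 1 held 11401694 fragments and library 2 21656110.

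Fragments were counted over 21887 protein-coding genes with 2 kb on both sides. Gene positions came from a RefSeq table of GRCm38.p6, and 388 of 389 list genes matched. Members were chosen by the rule given above, and no cell was removed as a doublet. Log2 ratios add 0.5 to each count, are set relative to the median gene, and carry exact conditional binomial intervals. Levels carry exact Poisson intervals. The script was tested on simulated data. With 1 library per group, no p-value was computed.

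The members and gene lists were chosen with earlier results of these data known. Named genes were the rule's genes and the highest and lowest of each list. To these came the 15 highest and 5 lowest over Kupffer cells, and 5 and 5 for the other comparisons. Genes ranked against Kupffer or endothelial cells needed at least 100 fragments in each library, over the 2 classes together. Genes ranked for library 2 over library 1 needed 100 member fragments over both libraries together, so 1 library could hold few or none. A few genes that this rule or the lists name are not reported here. The cluster genes and others outside this rule were chosen after their values were seen. Clusters used 138965 bins of 5 kb, 11 components, 10 neighbours and resolution 0.8 (leidenalg 0.10.2, scikit-learn 1.9.0, Python 3.11.15). Leading genes had a fragment in at least 40% of the cluster's cells.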

Additional observations from a re-analysis of the deposited data

How the results depend on the processing

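No main result and no 2-fold call of the 40 named genes changed sign under the alternatives run. Outside these, Cd2 over Kupffer cells in library 2 went from -1.45 to 0.33 with pile-ups masked. Smaller ratios inside 2-fold could change sign, as did Rasgrp3 in library 2 over library 1, from 0.58 to -0.25. The unadjusted median gene between libraries went from -0.30 to 0.33 with scaling by fragments in peaks. Of the main results, 111 recomputed values stayed within their counting interval or 1.5 times their count, while 37 did not. Leaving out the deepest member and requiring 3 panel genes were chosen after seeing the data, and so was masking pile-ups, at least for the clusters. Of 678 ratios of the 40 named genes, 666 kept their side of 2-fold and 12 fell inside it. No paired analysis was possible because each genotype has 1 library and barcode suffixes are not tied to genotypes. Depth limits gene starts, some of which hold under 10 fragments. The cause of the changes below was not tested.

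The share of members in library 1 was 5.90% with L at least 8, 6.39% with L at least 2 times the largest other sum and 4.54% with cells thinned to 5000 fragments. In library 2 it was 10.3% with L at least 8 and 18.5% with at least 50% of fragments in peaks. Without cells marked by the overlap rule it was 11.6%, and after thinning 6.26%. Within 1 kb of the fuller gene end, 33 genes were higher than in Kupffer cells in both libraries, 48 than in endothelial cells, and 75 were higher and 49 lower in library 2 than in library 1. With no minimum of fragments these counts were 570, 998, 3548 and 866. The number of tested genes changed as well. For library 2 over library 1 it was 7659 at the fuller end and 20789 with no minimum, against 14028 in the main setting. Over Kupffer cells it was 9959 and 8994 by library at the fuller end, and 20606 and 21048 with no minimum. Over endothelial cells it was 6847 and 8715, and 20116 and 21012. With at least 50% of fragments in peaks, 538 genes were higher than in endothelial cells in both libraries, of 11501 and 12590 tested by library. In library 2, 274 (2.35% of 11682) were higher than in library 1 and 51 (0.437%) lower. Leaving out mixed members gave 706 and 65 of 11844 tested, and gene bodies without flanks gave 195 lower of 12204.

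The pan-leukocyte log2 ratio over Kupffer cells was 0.27 in library 1 without mixed members, and in library 2 0.44 without them, 0.41 with at least 50% in peaks and 0.74 at the fuller end. In library 2 the nonclassical monocyte ratio was 0.66 with at least 50% in peaks, 0.66 without mixed members and 0.49 without the deepest member. The classical monocyte ratio there was 0.77 with pile-ups masked, 1.55 at the fuller end and 0.41 without mixed members. The further Kupffer cell genes in library 1 were at -1.35 with L at least 8, -1.35 without flanks, -1.03 at the fuller end and -1.65 without mixed members, and in library 2 at -1.39 with at least 50% in peaks. These sums include Cd5l of the rule. Leiden resolution 0.4 gave 3 clusters (adjusted Rand index 0.617 to the 6), 20 kb bins 5 (0.344) and masked pile-ups 5 (0.815).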

Other observations

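Other gene groups, also compared with Kupffer cells, stood as follows. Over all tested genes, 3.39% were called higher in library 1 and 6.74% in library 2, and 4.2% and 4.14% lower. Of 20 kinase and signalling genes, 0 were called higher in library 1 and 1 in library 2 (4 among members with at least 50% of fragments in peaks), and none lower. Of 18 cytokine receptor genes, 3 of 15 tested were higher in library 1 and 4 of 15 in library 2, and Il18r1, the interleukin 18 receptor, was higher in both at 2.01 and 1.91. Of 16 pattern recognition genes, Clec4e was the 1 gene called higher in each library, at 1.37 and 1.37. Of 11 interferon genes, none was higher and 1, Ifit3, was lower in library 1 at -2.87, with medians of -0.32 and -0.25. Of 10 housekeeping genes, none was called in either direction.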
